A study of Mus musculus with 3 samples.

Results

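The genes described here are the matrix metalloproteases (Mmp), the ADAMTS proteases (Adamts) and the tissue inhibitors of metalloproteases (Timp) of the mouse, read in 3 pancreatic tumour cell lines. The rule for membership used the gene symbol, as Mmp with a number and at most 1 letter, Adamts with a number, and Timp1 to Timp4. It was set with earlier results of these data known. The rule found 46 of the 22757 named genes of the deposited table, made up of 23 Mmp, 19 Adamts and 4 Timp genes. ADAMTS-like genes, which lack the protease domain, were not counted as members.

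The lines belong to a progression model named HI-Panc, with 1 RNA-seq library per stage: localized, invasive and metastatic. All 3 came from tumours of transgenic mice labelled p16-/- and were not immortalized. They were grown in DMEM with 10% FBS. A protocol text shared by all 3 gives 24 h of cobalt chloride at 100 ng/ml, a chemical mimic of hypoxia, for hypoxic models, and leaves unsaid whether these very libraries were treated. By tissue label the localized line is from body wall, the invasive line from pancreatic tissue and the metastatic line from liver. If the localized and invasive lines were exchanged, every difference between them given below would change sign. Each stage is 1 line and 1 library, so no difference has a replicate check, no p-value was computed, and counts compare these libraries rather than the stages.

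Matrix metalloproteases are zinc enzymes that cut collagens, basement membrane and other extracellular proteins. Most are secreted as inactive precursors, and the membrane-type members stay on the cell surface. ADAMTS proteases are secreted relatives that cut proteoglycans, trim procollagens or cleave single plasma and cartilage proteins. TIMPs bind the active site of these enzymes and block them, and Timp2 also takes part in the activation of Mmp2 by Mmp14. In pancreatic tumours these enzymes are made by tumour cells and by the fibroblasts of the dense stroma.

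Levels are FPKM, fragments scaled to transcript length and to sequencing depth, so they can be set beside each other between genes. The deposited values carry an added 0.1, which was subtracted. Steps in the low values put the depth at about 42000000 fragments (localized), 37600000 (invasive) and 40000000 (metastatic). Markers checked the label of a ductal tumour line: the 8 epithelial and ductal markers summed to 1221, 6318 and 6812 FPKM in the localized, invasive and metastatic libraries. The defining duct keratin Krt7 was at 0.793 FPKM in localized, 598 in invasive and 1077 in metastatic cells, so the localized library was close to lacking it. The 9 fibroblast markers ran the other way, with 388 FPKM in localized, 57.1 in invasive and 13.9 in metastatic cells, of which 0, 1 and 4 were at 0. Col1a1 made up 41.7% of the localized sum. Postn and Fap were near 0 in the localized library too, at 0.0148 and 0.0433 FPKM. The 6 leukocyte markers found summed to 89.7 FPKM in localized, 149.9 in invasive and 90.7 in metastatic cells, nearly all of it Cd14, while the defining Ptprc (CD45) stayed under 0.2 FPKM. Of the 4 acinar markers, Prss1, Cpa1 and Ptf1a were listed at 0 and Cela1 had 7.24 FPKM in localized, 1.13 in invasive and 0.323 in metastatic cells, and its part in the differences below was not tested. The neutrophil, endothelial, hepatocyte and muscle markers summed to less than 1 FPKM per list in every library. Fewer cells of a type and less RNA per cell cannot be told apart in such bulk samples.

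Most of the family was not read, or only barely. Of the 46 genes, 8 were listed at 0 in all 3 libraries, namely Mmp1a, Mmp1b, Mmp8, Mmp21, Mmp27, Adamts16, Adamts19 and Adamts20. A further 10 never reached 0.1 FPKM, and another 10 had their highest value between 0.1 and 1 FPKM. In all, 28 genes stayed below 1 FPKM everywhere, 2 (Adamts2 and Adamts4) exceeded it in 1 library with a mean below it, and 16 averaged at least 1 FPKM across the libraries. These 16 were 9 Mmp genes, 4 Adamts genes and 3 Timp genes.

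**Figure D1:**
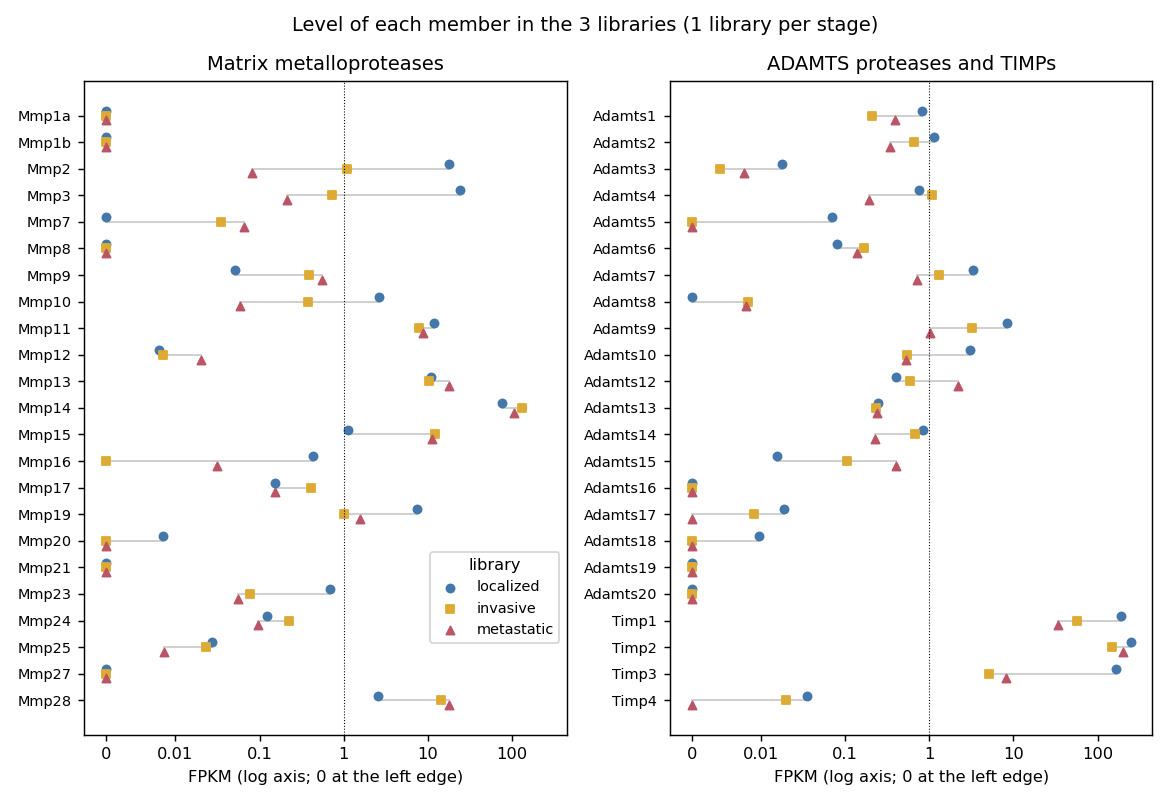
FPKM on a log axis for each of the 46 genes in the localized (circle), invasive (square) and metastatic (triangle) libraries, 1 library per stage, with values of 0 drawn at the left edge and a dotted line at 1 FPKM. Timp2 lies highest in each library, 8 genes lie at 0 in all 3 libraries, and Mmp2, Mmp3, Mmp10 and Timp3 have their circle far to the right of both other symbols.

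The localized library held the most inhibitor transcript. The 4 Timp genes summed to 599.8 FPKM in localized, 211 in invasive and 245 in metastatic cells. The 23 Mmp genes summed to 156 FPKM in localized, 182 in invasive and 165 in metastatic cells, a much narrower range. Summed Timp over summed Mmp was thus 3.85 in localized, 1.16 in invasive and 1.49 in metastatic cells. The Mmp sum joins parts that differed in opposite directions. Its 6 membrane-type genes summed to 77.8 FPKM in localized, 146 in invasive and 117 in metastatic cells. The other 17 Mmp genes summed to 78.1 FPKM in localized, 36.4 in invasive and 47.4 in metastatic cells. The 19 Adamts genes were low throughout, with sums of 19.0 FPKM in localized, 8.82 in invasive and 6.37 in metastatic cells.

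**Figure D2:**
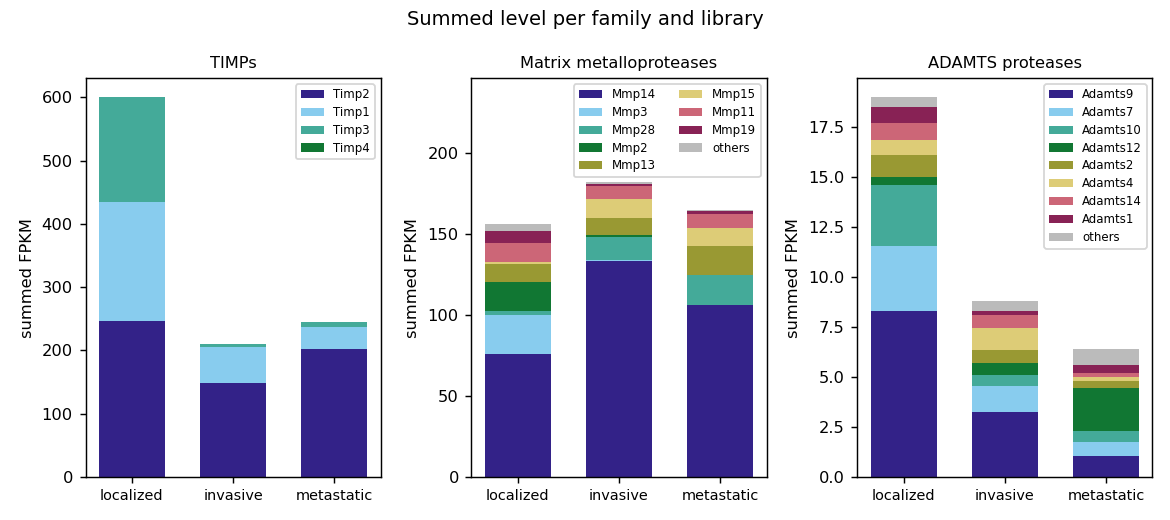
Summed FPKM of the Timp, Mmp and Adamts genes in the localized, invasive and metastatic libraries, with each gene as 1 colour of the stacked bar and a separate vertical scale per family. Timp3 and Timp1 make up most of the difference between the localized bar (599.8 FPKM) and the invasive (211) and metastatic (245) bars, while Mmp14 is the largest part of every Mmp bar.

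Differences between libraries are given in log2(FPKM + 1), a scale that understates the change of genes with low values, and a gene counted as higher or lower from a difference of 1 (2-fold) upward, given a mean of 1 FPKM or more. In the invasive against the localized library, 2 of the 16 members past this filter were higher, where 8.78% of all 11404 genes past it were. In the same comparison 8 members were lower, where the share among all genes was 6.07%. The median difference was -1.01 over the 16 members and 0.00 over all genes past the filter. Over all 46 members without the filter it was -0.01, since most of them lay near 0. In the metastatic against the localized library, 3 members were higher and 9 lower, with shares among all genes of 9.08% and 7.29%, and the median over the 16 was -1.35 beside 0.00. Both comparisons use the same localized library, so they are not separate observations of these genes. Among the lower members, Mmp3, Mmp10 and Adamts10 reached 1 FPKM in the localized library alone. Among the higher ones, Adamts12 reached it in the metastatic library alone. These genes passed the filter through the library in which they were high, so the counts and medians above partly reflect the filter.

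Between the metastatic and invasive libraries few members passed the 2-fold rule, and this count depended on the setting. With the pseudocount of 1 FPKM no member was higher in the metastatic library, where 1.33% of all genes were, and only Adamts9 was lower, where 1.67% of all genes were. With a pseudocount of 0.1 FPKM 1 member was higher and 4 were lower, where 1.99% and 3.27% of all genes were. The 4 were Adamts9, Mmp2, Mmp3 and Mmp10, and the metastatic over invasive ratio of FPKM was 0.0729 for Mmp2, 0.158 for Mmp10 and 0.290 for Mmp3. Under a 1.5-fold rule 3 were higher and 3 lower, where 3.51% and 5.35% of all genes were. The median over the 16 members was -0.06, against -0.01 over all genes. A gene with a high value in 1 library can pass the filter through that value. Mmp10 (mean 1.03 FPKM) passed through its localized value of 2.67 FPKM. Adamts12 (mean 1.05 FPKM) passed through its metastatic value of 2.17 FPKM. Just below the filter lay Adamts2 (mean 0.710 FPKM), Adamts4 (0.672) and Adamts14 (0.581).

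**Figure D3:**
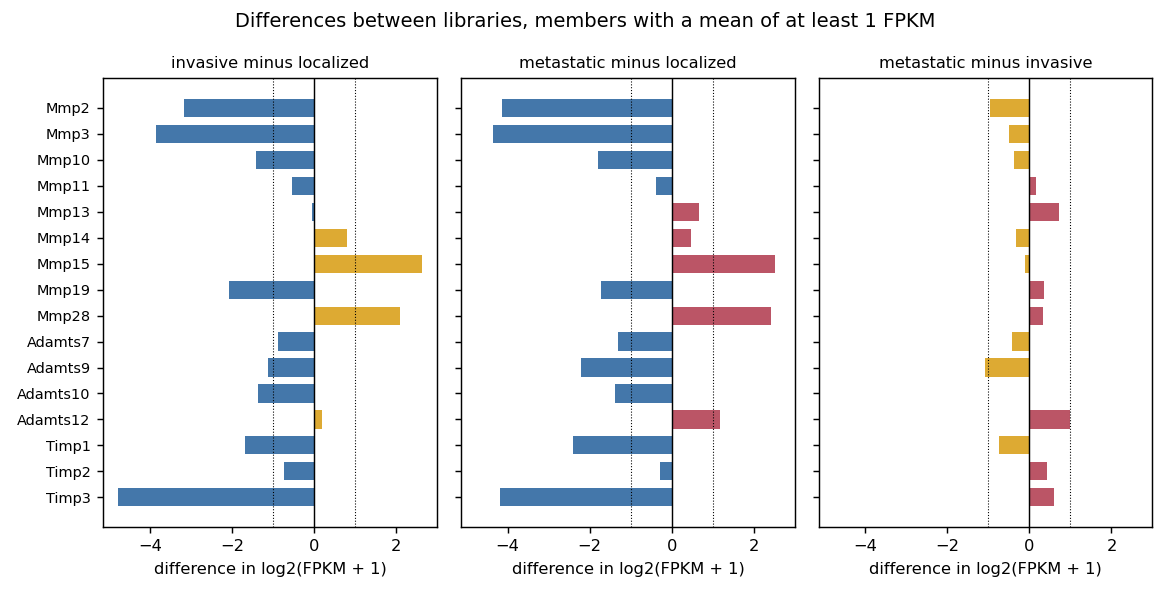
Difference in log2(FPKM + 1) for the 16 members with a mean of at least 1 FPKM, for invasive minus localized, metastatic minus localized and metastatic minus invasive, with dotted lines at 2-fold and each bar in the colour of the library with the higher value (blue localized, yellow invasive, red metastatic). Mmp2, Mmp3 and Timp3 lie beyond -3 in both comparisons with the localized library, Mmp15 and Mmp28 lie beyond 2, and only Adamts9 passes -1 in the last panel.

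**Figure D4:**
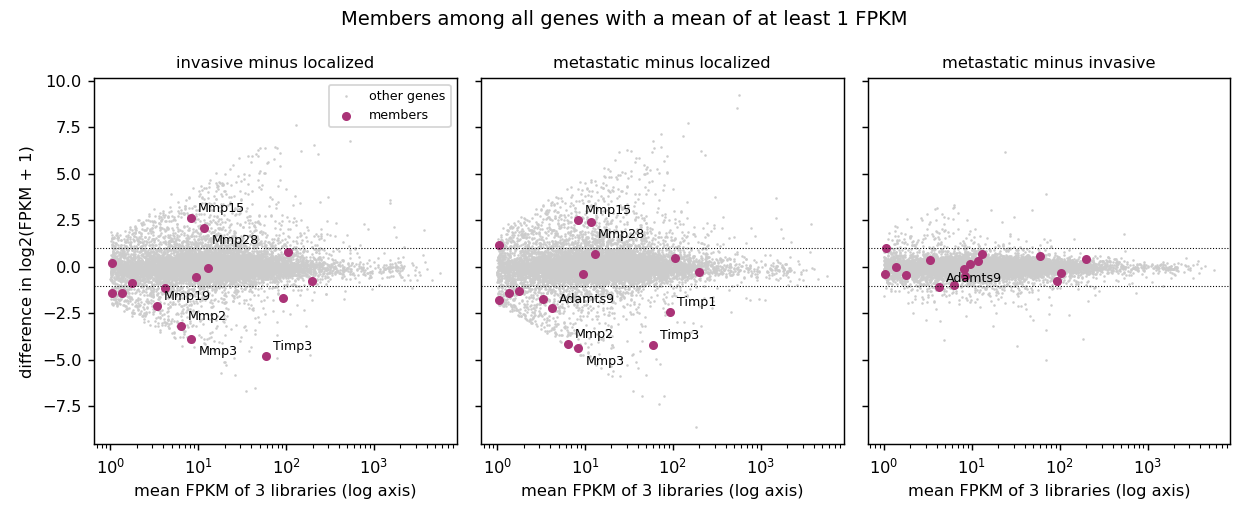
Difference in log2(FPKM + 1) against mean FPKM (log axis) for the 11404 genes past the filter (grey) and the 16 members (purple), 1 panel per comparison, with dotted lines at 2-fold and names on members at least 4-fold apart in the first panels or past 2-fold in the last. More members lie below the lower line than above the upper one in both comparisons with the localized library, 8 against 2 and 9 against 3, and only Adamts9 lies beyond a line in the last panel.

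Among the inhibitors, Timp3 differed most. Timp3, which unlike its relatives binds to the matrix and also blocks several ADAM and ADAMTS enzymes, had 165 FPKM in localized, 5.07 in invasive and 8.15 in metastatic cells. The invasive over localized ratio was 0.0307 (95% counting interval 0.0287 to 0.0328), and the metastatic over localized ratio was 0.0494 (0.0469 to 0.0520). Such intervals come from estimated fragments and cover counting error only. The localized library therefore stood far above both others, which lay within 2-fold of each other. Timp3 (GRCm38 chromosome 10, 86300372 to 86349506, plus strand) shares 1733 exon bases, 21.3% of its own, with Syn3 on the other strand. The sources used here do not state whether reads were assigned by strand, so reads of the shared stretch cannot be told apart. Syn3 had 0.0889 FPKM in localized, 0.132 in invasive and 0.152 in metastatic cells.

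Timp1, a secreted inhibitor induced by growth factors and cytokines, followed the order of the stages downward, with 188 FPKM in localized, 57.7 in invasive and 34.3 in metastatic cells. The difference was -1.68 for invasive minus localized, -2.42 for metastatic minus localized and -0.73 for metastatic minus invasive. Timp1 lies on chromosome X inside Syn1, with no shared exon bases, and Syn1 had 1.92 FPKM in localized, 0.655 in invasive and 0.276 in metastatic cells. Timp2 was the most abundant member in every library, with 247 FPKM in localized, 148 in invasive and 202 in metastatic cells, and no pair of libraries differed 2-fold. Timp1 over Timp2 was 0.759 in localized, 0.389 in invasive and 0.170 in metastatic cells, and Timp3 over Timp2 was 0.667 in localized, 0.0342 in invasive and 0.0403 in metastatic cells. Timp2 thus made up 41.2% of the summed inhibitor level in localized, 70.3% in invasive and 82.7% in metastatic cells. Timp4 stayed near 0, with 0.0354 FPKM in localized, 0.0196 in invasive and 0 in metastatic cells.

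Of the 2 membrane-type enzymes past the filter, none was lower in the invasive or metastatic library. Mmp14, or MT1-MMP, a surface collagenase that also activates pro-Mmp2, had 76.0 FPKM in localized, 133 in invasive and 106 in metastatic cells. It was the highest protease of the family in each, at 48.7% of the summed Mmp level in localized, 72.9% in invasive and 64.1% in metastatic cells. Its largest difference, invasive minus localized, was 0.80 and did not reach 2-fold. Timp2 over Mmp14 was 3.25 in localized, 1.12 in invasive and 1.92 in metastatic cells.

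Mmp15, or MT2-MMP, a further surface collagenase, was called higher in both comparisons with the localized library. It had 1.14 FPKM in localized, 12.2 in invasive and 11.3 in metastatic cells. The invasive over localized ratio was 10.8 (95% counting interval 9.44 to 12.3) and the metastatic over localized ratio 9.94 (8.71 to 11.4). The invasive and metastatic values were within 2-fold of each other.

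The other 4 membrane-type enzymes were below 0.5 FPKM everywhere. Mmp16, a further membrane-type enzyme, had 0.437 FPKM in the localized library, was listed at 0 in the invasive library and had 0.0314 FPKM in the metastatic library. About 92 fragments stood behind its localized value. With 3 fragments as the limit that a count of 0 allows in the invasive library, Mmp16 was at least 27.5-fold higher in localized cells. This bound takes the localized value as exact and leaves out its counting error. Mmp17, Mmp24 and Mmp25 ranged from 0.00720 to 0.410 FPKM.

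Mmp28, or epilysin, a secreted enzyme of epithelia such as skin and gut, was the other member called higher in both comparisons. It had 2.56 FPKM in localized, 14.3 in invasive and 18.1 in metastatic cells. The difference was 2.10 for invasive minus localized and 2.43 for metastatic minus localized. The gene on the other strand, 1700020L24Rik, shares 466 exon bases with Mmp28 (12% of those of Mmp28), and had 2.5 FPKM in localized, 11.7 in invasive and 14.9 in metastatic cells. Without stated strand, reads of these neighbours cannot be told apart over the shared stretch. The same holds for Adamts7 with Tbc1d2b, Mmp11 with Chchd10 and Mmp24 with BC029722, which share 1.94% to 13.6% of the member's exon bases.

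The gelatinases, which degrade denatured collagen and basement membrane collagen, are a pair, of which Mmp2 alone passed the filter and was called lower against the localized library. Mmp2, or gelatinase A, typical of fibroblasts, had 17.9 FPKM in localized, 1.1 in invasive and 0.0803 in metastatic cells. The metastatic over localized ratio was 0.00450 (95% counting interval 0.00218 to 0.00838), with about 9.9 fragments behind the metastatic value. The metastatic over invasive ratio was 0.0729 (0.0347 to 0.141), while on the log2(FPKM + 1) scale this difference was -0.960 and missed the 2-fold rule. Mmp9, or gelatinase B, best known from neutrophils and macrophages, stayed low with 0.0511 FPKM in localized, 0.388 in invasive and 0.553 in metastatic cells and was not past the filter. Its invasive over localized ratio was 7.60 (3.29 to 19.3), and its metastatic over localized ratio was 10.8 (4.84 to 27.1), with about 6.8 fragments in the localized library. The higher gelatinase was thus Mmp2 in the localized and invasive libraries and Mmp9 in the metastatic library, at 87.3% of the pair's sum there.

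The stromelysins cut proteoglycans, laminin and fibronectin and can activate other Mmp precursors. Mmp3, or stromelysin-1, had 24.1 FPKM in localized, 0.733 in invasive and 0.213 in metastatic cells. The invasive over localized ratio was 0.0304 (95% counting interval 0.0226 to 0.0405), and the metastatic over localized ratio was 0.00882 (0.00482 to 0.0143). Mmp10, or stromelysin-2, had the same order at a lower level, with 2.67 FPKM in localized, 0.374 in invasive and 0.0591 in metastatic cells, and rested on about 193 fragments in localized, 24 in invasive and 4.1 in metastatic cells. Mmp11, or stromelysin-3, which despite its name is a distant relative activated inside the cell by furin, was within 2-fold in all pairs, with 11.8 FPKM in localized, 7.88 in invasive and 8.88 in metastatic cells.

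Of the collagenases, which cut intact fibrillar collagen, only Mmp13 was read. It had 10.8 FPKM in localized, 10.4 in invasive and 17.8 in metastatic cells, and its largest difference, metastatic minus invasive, was 0.72. Mmp1a, Mmp1b and Mmp8 were listed at 0. The small matrilysin Mmp7, a product of glandular epithelium, had 0 FPKM in localized, 0.0347 in invasive and 0.0658 in metastatic cells, and the macrophage elastase Mmp12 had 0.00638 FPKM in localized, 0.00707 in invasive and 0.0201 in metastatic cells, amounting to about 3 fragments at most for either. Mmp19, which cuts basement membrane proteins, had 7.51 FPKM in localized, 1.01 in invasive and 1.57 in metastatic cells, a difference of -2.08 for invasive minus localized. It shares 22.3% of its exon bases with Tmem198b on the other strand (20.4 FPKM in localized, 14.9 in invasive and 12.5 in metastatic cells). Mmp23 had 0.697 FPKM in localized, 0.0773 in invasive and 0.0550 in metastatic cells, and Mmp20 was read as about 1 fragment in the localized library alone.

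A group of 10 neighbours can be set side by side, since Mmp13, Mmp12, Mmp1b, Mmp3, Mmp1a, Mmp10, Mmp8, Mmp27, Mmp20 and Mmp7 lie side by side on GRCm38 chromosome 9 from 7272514 to 7699585, with no other protein-coding gene of the table between them. They summed to 37.6 FPKM in localized, 11.6 in invasive and 18.2 in metastatic cells. Mmp3 led in the localized library with 64.1% of that sum. Mmp13 led in the invasive library with 90.1% and in the metastatic library with 98.0%. Mmp3 over Mmp13 was 2.23 in localized, 0.0703 in invasive and 0.0119 in metastatic cells. The nearest gene on each side of the cluster stayed within 2-fold. Dcun1d5, on the Mmp13 side, had 57.0 FPKM in localized, 46.6 in invasive and 52.2 in metastatic cells. Tmem123, on the Mmp7 side, had 25.5 FPKM in localized, 26.3 in invasive and 21.3 in metastatic cells. Farther out on the Mmp7 side, Birc2 and Birc3 also stayed within 2-fold. Farther out on the Mmp13 side, Pdgfd was more than 2-fold higher in metastatic than in invasive cells. Pdgfd had 3.76 FPKM in metastatic and 1.61 in localized cells. Dync2h1, also on that side, had 1.13 FPKM in localized and 0.552 in invasive cells, with its metastatic value in between.

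**Figure D5:**
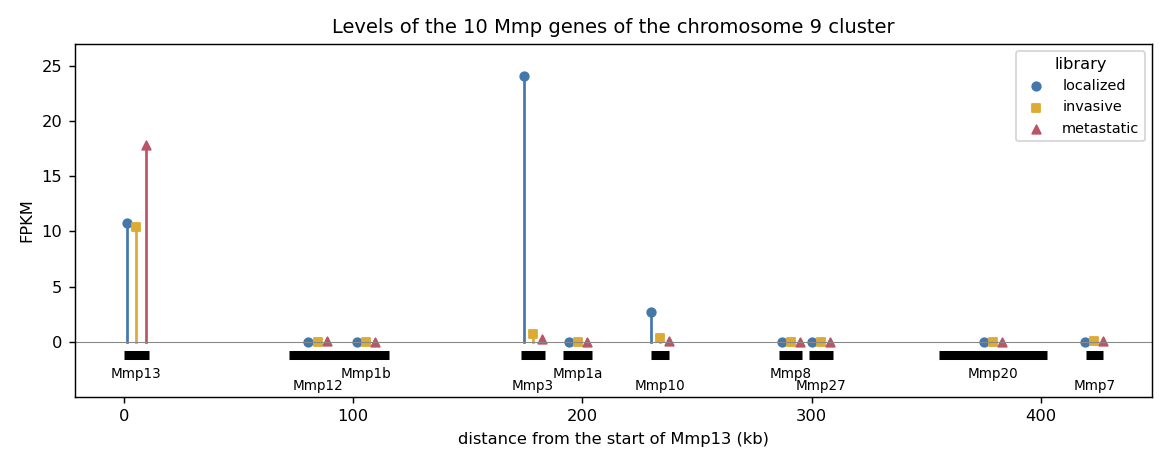
FPKM of the 10 Mmp genes of the chromosome 9 cluster in the localized (circle), invasive (square) and metastatic (triangle) libraries against distance from the start of Mmp13 in kb, with black bars for the genes. Mmp3 stands at 24.1 FPKM in the localized library and near 0 in the others, Mmp13 stands between 10.4 and 17.8 FPKM in all 3, and most of the other genes lie on the baseline.

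The promoters of this cluster are shown because many of them hold the same motif while their levels differ widely. RefSeq start sites (GRCm38.p6) were at hand for 32 of the 46 members, 12 of them past the filter, in 35 windows of 250 bases before the start. The AP-1 motif TGANTCA, the binding sequence of Fos and Jun proteins and identical on both strands, occurred in 6.75% of the 32851 windows of all genes. It occurred in 8 of 12 windows of the cluster, in 1 window each of Mmp3, Mmp10, Mmp13, Mmp12, Mmp1a, Mmp1b, Mmp7 and Mmp20, and in 0 of 23 windows of the other 22 members. Its first base lay 46 bases before the start in Mmp3, 63 in Mmp10, 35 in Mmp13, 73 in Mmp1a and 63 in Mmp7. The 100 bases before the start are printed 5′ to 3′ on the plus strand for these 5 genes, with the AP-1 letters in capitals, and for Timp3, whose window holds none. They cover chr9:7445722-7445821 for Mmp3, chr9:7502242-7502341 for Mmp10, chr9:7272414-7272513 for Mmp13, chr9:7464041-7464140 for Mmp1a, chr9:7691990-7692089 for Mmp7 and chr10:86300312-86300411 for Timp3.
Mmp3: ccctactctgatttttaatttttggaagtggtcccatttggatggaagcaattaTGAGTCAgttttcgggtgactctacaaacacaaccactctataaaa
Mmp10: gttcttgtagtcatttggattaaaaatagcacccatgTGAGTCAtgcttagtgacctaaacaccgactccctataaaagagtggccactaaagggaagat
Mmp13: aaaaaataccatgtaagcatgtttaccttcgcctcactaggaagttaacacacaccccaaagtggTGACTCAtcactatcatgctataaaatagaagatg
Mmp1a: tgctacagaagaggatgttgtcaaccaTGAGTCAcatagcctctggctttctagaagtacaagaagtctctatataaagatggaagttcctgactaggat
Mmp7: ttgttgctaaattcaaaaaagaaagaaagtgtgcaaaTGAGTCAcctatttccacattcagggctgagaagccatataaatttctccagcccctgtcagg
Timp3: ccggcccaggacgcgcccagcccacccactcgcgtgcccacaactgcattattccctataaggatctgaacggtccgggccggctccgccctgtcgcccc

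Mmp3 and Mmp10 were lower in the invasive and metastatic libraries, Mmp13 was within 2-fold in all pairs, Mmp7 was near 0 and Mmp1a was listed at 0. The TATA box TATAAA, searched on both strands, occurred in 7 of 12 cluster windows, in 2 of 23 windows of the other members and in 12.4% of all windows. Cluster windows were poor in G and C, with a median of 40.2% beside 63.6% for the other members. The E-box CACCTG, which Snail-type repressors bind, occurred on either strand in 7 of 35 member windows and in 17.2% of all windows, and the NF-kB motif in 0 of 35 and in 1.41%. A match in such a window is a description of its letters only.

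The transcription factors listed for these genes, all 15 past the filter, went both ways. In the invasive against the localized library 3 were at least 2-fold higher and 1 lower, and in the metastatic against the localized library 2 were higher and 3 lower. Among all genes past the filter, 8.78% were higher and 6.07% lower in the first comparison, and 9.08% and 7.29% in the second. Of the AP-1 subunits, Fos had 1.15 FPKM in localized, 47.1 in invasive and 4.39 in metastatic cells. Jun had 48.3 FPKM in localized, 24.9 in invasive and 10.1 in metastatic cells, and Fosl1, or Fra-1, had 20.4 FPKM in localized, 7.55 in invasive and 9.44 in metastatic cells. Junb had 93.7 FPKM in localized, 182 in invasive and 109 in metastatic cells, and Jund, chosen after its values were seen, had 64.7 FPKM in localized, 90.6 in invasive and 88.6 in metastatic cells. Fosl1 and Jun were thus highest in the localized library, as Mmp3 and Mmp10 were, and Fos, Junb and Jund were lowest there. The epithelial Ets factor Elf3 had 7.20 FPKM in localized, 102 in invasive and 97.5 in metastatic cells, and Ets2 had 17.3 FPKM in localized, 42.1 in invasive and 31.7 in metastatic cells.

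Among the ADAMTS enzymes, Adamts9 was the highest in the localized and invasive libraries and Adamts12 in the metastatic one, and Adamts9 was the only member called lower in all 3 comparisons. Adamts9, a secreted enzyme that cuts versican and aggrecan, had 8.30 FPKM in localized, 3.25 in invasive and 1.02 in metastatic cells. Adamts9 shares 9.18% of its exon bases with A730049H05Rik and 2.82% with Gm15737, whose levels were not analysed here, and reads of the shared stretches cannot be told apart. Metastatic over invasive, its ratio was 0.312 (95% counting interval 0.275 to 0.355) and the invasive over localized ratio 0.392 (0.364 to 0.421). By a rule for the ordered stages, a change of 1.5-fold or more, in 1 direction, at each step, 3 of the 16 members were lower throughout (Adamts9, Mmp2 and Timp1), where 1.54% of all genes were. No member was higher throughout, where 1.47% of all genes were. Both steps use the invasive library.

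The other proteoglycan-cleaving ADAMTS genes were low. Adamts1 had 0.808 FPKM in localized, 0.206 in invasive and 0.391 in metastatic cells and its chromosome 16 neighbour Adamts5, the main aggrecanase of mouse cartilage, had 0.0689 FPKM in the localized library and was listed at 0 in the invasive and metastatic libraries. With the same limit of 3 fragments per library, Adamts5 came out at least 9.32-fold higher in localized than in invasive cells and at least 9.92-fold higher than in metastatic cells. These bounds take the localized value, about 31 fragments, as exact and leave out its counting error. Adamts4, also an aggrecanase, had 0.744 FPKM in localized, 1.08 in invasive and 0.191 in metastatic cells. Adamts15, below the filter, had 0.0152 FPKM in localized, 0.105 in invasive and 0.396 in metastatic cells. For Adamts15 the metastatic over invasive ratio was 3.76 (2.41 to 6.35), resting on about 94 and 23 fragments, while its chromosome 9 neighbour Adamts8 was read as about 1 fragment or none.

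The procollagen N-proteinases, which remove the N-terminal propeptide of fibrillar procollagens, had a lower sum at each later stage, with 2.01 FPKM in localized, 1.32 in invasive and 0.569 in metastatic cells. Adamts2 had 1.14 FPKM in localized, 0.649 in invasive and 0.338 in metastatic cells, Adamts14 had 0.851 FPKM in localized, 0.668 in invasive and 0.225 in metastatic cells, and Adamts3 did not exceed 0.0177 FPKM. None was past the filter. Of 5 fibrillar collagen genes past the filter, 4 were lower in invasive and 4 in metastatic cells, each against localized cells. The shares of all genes lower in these comparisons were 6.07% and 7.29%. Col1a1 had 162 FPKM in localized, 46.3 in invasive and 3.45 in metastatic cells, and Col3a1 had 117 FPKM in localized, 8.67 in invasive and 6.57 in metastatic cells.

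Adamts7 and Adamts12, relatives that cleave cartilage oligomeric matrix protein, went opposite ways. Adamts7 had 3.26 FPKM in localized, 1.30 in invasive and 0.716 in metastatic cells, and was called lower in the metastatic against the localized library (-1.31). Adamts12 had 0.397 FPKM in localized, 0.592 in invasive and 2.17 in metastatic cells, and was called higher in the metastatic against the localized library (1.18). Its metastatic minus invasive difference of 0.995 fell just short of the rule, although the ratio was 3.67 (95% counting interval 3.13 to 4.33). Their substrate gene Comp stayed below 0.1 FPKM.

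Adamts10, which takes part in fibrillin microfibril assembly, had 3.02 FPKM in localized, 0.549 in invasive and 0.533 in metastatic cells. The invasive over localized ratio was 0.182 (0.142 to 0.228), and the metastatic over invasive ratio was 0.972 (0.712 to 1.33), an interval that includes 1. The fibrillin gene Fbn1 had 15.3 FPKM in localized, 2.73 in invasive and 1.47 in metastatic cells. Adamts13, which trims von Willebrand factor, varied least among the members above 0.1 FPKM in every library, with 0.246 FPKM in localized, 0.230 in invasive and 0.239 in metastatic cells. Adamts6 had 0.0800 FPKM in localized, 0.167 in invasive and 0.139 in metastatic cells, and Adamts17 and Adamts18 were read as fewer than 5 fragments.

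The fibroblast markers were highest in the library in which the lower members were highest. Mmp2, Mmp3 and Timp3 were highest in the localized library, as were Pdgfra (42.7 FPKM in localized, 1.09 in invasive and 1.97 in metastatic cells), Dcn (54.4 FPKM in localized, 0.0710 in invasive and 0.0142 in metastatic cells) and Thy1 (2.16 FPKM in localized, 0.0156 in invasive and 0 in metastatic cells). The summed level of the 9 fibroblast markers in the invasive and metastatic libraries was 57.1 and 13.9 FPKM, against 388 FPKM in the localized library. Of these markers, Postn and Fap were near 0 in every library. The part of cell identity or of admixed cells in these differences was not tested. Among the members higher in the invasive and metastatic libraries, Mmp15 and Mmp28 stood beside epithelial markers of which most were higher there too. Cdh1 had 20.7 FPKM in localized, 218 in invasive and 118 in metastatic cells and Krt19 had 181 FPKM in localized, 1970.2 in invasive and 2365 in metastatic cells, while Sox9 had 17.5 FPKM in localized, 23.3 in invasive and 11.4 in metastatic cells.

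Other genes switch these enzymes on or clear them. In the plasminogen system, which activates Mmp precursors, the protease inhibitor Serpine2 was lower in both invasive and metastatic cells than in localized cells. It had 3.18 FPKM in localized, 0.982 in invasive and 0.993 in metastatic cells. Anxa2, a plasmin-generating surface receptor, had 2069 FPKM in localized, 2249 in invasive and 1705 in metastatic cells. Of 8 activators, inhibitors and clearance genes past the filter, 0 were higher and 1 lower in the invasive library, and 1 was higher and 2 lower in the metastatic library, each against the localized one. Among all genes, 8.78% were higher and 6.07% lower in the invasive library, and 9.08% and 7.29% in the metastatic library. Bsg, which induces Mmp genes in neighbouring cells, had 759 FPKM in localized, 991 in invasive and 896 in metastatic cells, and Lrp1, which takes up proteases and their complexes, had 51.2 FPKM in localized, 29.9 in invasive and 18.9 in metastatic cells. The procollagen C-proteinase enhancer Pcolce had 414 FPKM in localized, 45.0 in invasive and 49.5 in metastatic cells, whereas its relative Pcolce2 had 7.33 FPKM in localized, 15.4 in invasive and 21.3 in metastatic cells. Furin, which activates Mmp14, had 39.8 FPKM in localized, 63.1 in invasive and 57.4 in metastatic cells and the membrane-anchored inhibitor Reck 1.27 FPKM in localized, 0.302 in invasive and 0.173 in metastatic cells, both chosen after their values were seen.

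Among the substrates, of 9 basement membrane genes past the filter, 2 were higher and 1 lower in the invasive against the localized library, and 2 were higher and 1 lower in the metastatic against the localized library, with Nid1 the lower gene in the first case and Hspg2 in the other. Shares among all genes were 8.78% higher and 6.07% lower in the invasive library, and 9.08% and 7.29% in the metastatic library. Lama5 had 34.6 FPKM in localized, 98.5 in invasive and 82.8 in metastatic cells, Lamb3 had 1.85 FPKM in localized, 16.6 in invasive and 4.86 in metastatic cells, and Nid1 had 179.6 FPKM in localized, 87.2 in invasive and 120.4 in metastatic cells. Of 6 proteoglycan and glycoprotein genes past the filter, 1 was higher and 3 lower in the invasive library, and 1 was higher and 5 lower in the metastatic library, again against the localized one. The shares among all genes given above apply to these counts too. Versican, Vcan, a target of Adamts9, had 26.1 FPKM in localized, 6.93 in invasive and 2.96 in metastatic cells, and fibronectin, Fn1, had 928 FPKM in localized, 285 in invasive and 171 in metastatic cells. Fibulin-1, Fbln1, a cofactor of Adamts1, was the higher one, with 4.15 FPKM in localized, 13.7 in invasive and 13.1 in metastatic cells.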

How the data were processed

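RNA-seq libraries of 3 mouse cell lines were analysed, 1 per stage, grouped by the stage label. Per the submitters' processing notes, STAR 2.5.2a, FastQC 0.11.2, Cufflinks 2.2.1 and GRCm38 were used, with no role or order given. The authors deposited 1 table of FPKM per gene; strandedness and annotation are not given in the sources used here. Its lowest value was exactly 0.1 in each column, so 0.1 was subtracted. Of 22784 rows, 27 named by a spreadsheet date number were left out, as were 2 abundant short or ribosomal RNAs from the counts. Depth was estimated from single-fragment steps of low values in genes with 1 transcript in GENCODE M21, and fragments per member from its principal transcript; tested on simulated data, known depths came out slightly low. Counting intervals are exact conditional binomial intervals. Members and lists were chosen with earlier results of these data known. All members may be named; of other lists, genes past 2-fold and the highest one. In all, 8 alternative settings were tried. Promoters came from RefSeq. A further allele of the genotype label and some genes of the lists are not reported here. Python 3.11.15, pandas 2.3.3 and scipy 1.17.1 were used.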

Additional observations from a re-analysis of the deposited data

How the results depend on the processing

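With 1 library per stage, no replicate could be left out, and no paired analysis was possible because the groups share no replicate numbers beyond 1 library each. Under the 8 alternatives no member reversed its direction where it was called, and no call was lost among members still past the filter. With a pseudocount of 0.1 FPKM, the median over members was -1.29 (invasive against localized) and -2.12 (metastatic against localized), 1 member was higher and 4 were lower in the metastatic against the invasive library (all genes 1.99% and 3.27%), and 6 were lower at both steps (all genes 2.78%). With a pseudocount of 0.5 FPKM these values were -1.15, -1.70, 1, 2 and 5 (all genes 1.65%, 2.23% and 2.03% for the counts). Without the filter on low values the medians over all 46 members were -0.01 and -0.01. With a filter at a mean of 5 FPKM, 10 members were left and 4 were lower in each comparison with the localized library (all genes 4.24% and 5.50%), with medians of -0.63 and -0.33, and 0 were lower in the metastatic against the invasive library (all genes 1.56%). With libraries scaled to equal sums the medians were -0.74, -0.91 and, for metastatic against invasive, -0.30, where 1 member was higher and 3 were lower (all genes 1.81% and 2.08%). This scaling raises all values, so Adamts2, Adamts4 and Adamts14 also passed the filter, giving 19 members, and Adamts4 was among the 3. Under a 1.5-fold rule 3 members were higher and 3 lower in the metastatic against the invasive library (all genes 3.51% and 5.35%). Adamts7 (invasive against localized), Adamts12 and Mmp2 (both metastatic against invasive) passed 2-fold under the smaller pseudocounts and the equal-sum scaling. Mmp3 and Mmp10 (metastatic against invasive) did so at a pseudocount of 0.1 FPKM. Median-ratio scaling and leaving 0.1 in place changed no call. Members with fewer than 5 estimated fragments in every library, such as Mmp7 and Mmp12, allow no direction at this depth.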

Other observations

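Sheddases of the ADAM family, membrane-bound relatives of the ADAMTS enzymes that release growth factors and receptors from the cell surface, were read beside them. Of 7 past the filter, 1 was higher and 1 lower in the invasive against the localized library, and 2 were higher and 1 lower in the metastatic against the localized library. Among all genes, 8.78% were higher and 6.07% lower in the first comparison, and 9.08% and 7.29% in the second. Adam9 was the highest, with 56.3 FPKM in localized, 87.4 in invasive and 108 in metastatic cells. Adam8 had 8.43 FPKM in localized, 15.7 in invasive and 29.8 in metastatic cells, and Adam12 had 0.181 FPKM in localized, 1.74 in invasive and 1.57 in metastatic cells. Adam19 ran the other way, with 3.04 FPKM in localized, 0.623 in invasive and 0.0152 in metastatic cells.

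ADAMTS-like proteins share the non-catalytic domains of ADAMTS enzymes and bind microfibrils. Of 3 past the filter, 1 was higher and 1 lower in both the invasive and the metastatic library against the localized one. Among all genes, 8.78% were higher and 6.07% lower in the invasive library, and 9.08% and 7.29% in the metastatic library. Adamtsl4 had 13.5, 42.6 and 39.5 FPKM in the localized, invasive and metastatic libraries, and Adamtsl3 had 4.0 FPKM in localized, 0.443 in invasive and 0.226 in metastatic cells. Bmp1, the procollagen C-proteinase of the astacin family, had 20.6 FPKM in localized, 16.9 in invasive and 12.3 in metastatic cells and was the only one of its 5 listed relatives past the filter.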
